A study of Mus musculus with 6 samples.

Results

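Klf10 and 9 of its paralogs among the Kruppel-like factors (Klf2, Klf4, Klf5, Klf6, Klf7, Klf9, Klf11, Klf13 and Klf16) were followed in the cerebral cortex of young and old adult mice. They are 10 of the 17 Klf genes in the files, which list 55421 genes in all. The members were found by their gene symbols. Klf10 was chosen by its difference in read counts between the ages in these same libraries, and the list was drawn up with that result known, so the differences of all 10 members are given as descriptions with no p-value, and the number of members called is set beside the share of all genes called. RNA was sequenced from the cortex of 3 C57BL/6J mice of 6 months (mice 10, 11 and 17) and 3 of 24 months (mice 2, 4 and 5). All 6 were wild-type males, were anesthetized with isoflurane before cervical dislocation, and gave 1 library each from powdered whole cortex. Counts summed to between 29495379 and 36494240 per library. In such bulk tissue, fewer cells of a type and less RNA per cell cannot be told apart.

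Kruppel-like factors are transcription factors with C2H2 zinc fingers at the carboxyl terminus that bind GC-rich and CACCC-containing DNA, the same kind of site as the related Sp factors. Outside the zinc fingers the members differ, and with that the partners they recruit. Klf9, Klf10, Klf11, Klf13 and Klf16 carry a short motif that binds the Sin3a corepressor and are mostly known as repressors, whereas Klf2, Klf4, Klf5, Klf6 and Klf7 are mostly known as activators. Klf10 was first described as a gene induced early by transforming growth factor beta (TGF-beta). In the nervous system, Klf9 is known as a target of thyroid hormone and glucocorticoids, and Klf4, Klf6, Klf7 and Klf9 for raising or limiting the growth of axons.

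The stretches just upstream of the start sites show how GC-rich the control regions of this family are. RefSeq promoters (GRCm38.p6) were matched for 7 of the 10 members, the others being Klf5, Klf10 and Klf16. RefSeq and GENCODE vM21 place some starts differently, so that the window before the RefSeq start of Klf7 lies inside the GENCODE gene with all 250 bases, that of Klf11 with 97, that of Klf2 with 29 and that of Klf6 with 7. In the 250 bases before the RefSeq start, the GC content of the 7 ran from 59.2% in Klf7 to 76.8% in Klf11, against a median of 52.4% over 32851 promoters. Of the 7 members, 6 held a GC box (GGGCGG), the kind of letters that Sp and Kruppel-like factors bind, as did 32.7% of all promoters. The CACCC box (CACCC) was found in 4 of 7, against 52% of all promoters. The core of the cAMP response element (TGACG) was found in 4 of 7, against 17.8%, and the E-box CACGTG, bound by the clock factors among others, in 3 of 7 (Klf4, Klf6 and Klf11), against 6.02%. The full cAMP response element (TGACGTCA, 1.55% of all promoters) and the TATA box (TATAAA, 12.4%) matched 0 of 7, which says only that these letters are not in this window. Both strands were searched. The shares are over all promoters and not over promoters of like GC content. How many matches the GC content of the 7 alone would give was not tested. The core lies within the full element, and the GC box and the CACCC box can share bases. A match is a run of letters and no measurement of binding. The 4 members with that core are shown, a pair of activators and a pair of repressors, with every match to the motifs in capitals and each sequence read 5′ to 3′ on the strand of the gene. Klf2 is at chr8:72318812-72319061 (plus strand), Klf4 at chr4:55532476-55532725 (minus strand), Klf9 at chr19:23140976-23141225 (plus strand) and Klf13 at chr7:63938916-63939165 (minus strand).
Klf2: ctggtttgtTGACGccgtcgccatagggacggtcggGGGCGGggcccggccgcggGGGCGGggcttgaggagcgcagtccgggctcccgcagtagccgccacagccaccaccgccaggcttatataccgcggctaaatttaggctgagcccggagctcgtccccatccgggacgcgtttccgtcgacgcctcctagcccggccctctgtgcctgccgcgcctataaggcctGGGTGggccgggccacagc
Klf4: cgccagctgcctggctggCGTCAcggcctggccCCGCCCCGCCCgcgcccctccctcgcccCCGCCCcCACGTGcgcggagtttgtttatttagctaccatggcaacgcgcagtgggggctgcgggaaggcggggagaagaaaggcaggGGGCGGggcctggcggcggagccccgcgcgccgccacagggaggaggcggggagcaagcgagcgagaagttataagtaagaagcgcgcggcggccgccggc
Klf9: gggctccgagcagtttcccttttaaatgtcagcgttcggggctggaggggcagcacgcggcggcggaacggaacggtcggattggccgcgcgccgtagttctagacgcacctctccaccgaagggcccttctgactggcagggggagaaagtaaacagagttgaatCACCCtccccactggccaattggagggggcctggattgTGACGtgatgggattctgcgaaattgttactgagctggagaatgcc
Klf13: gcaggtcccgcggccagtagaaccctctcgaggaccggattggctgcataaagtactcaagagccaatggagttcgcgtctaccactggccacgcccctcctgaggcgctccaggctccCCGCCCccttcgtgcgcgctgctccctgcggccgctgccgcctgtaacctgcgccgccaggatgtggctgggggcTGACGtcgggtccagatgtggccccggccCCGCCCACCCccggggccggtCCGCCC

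All 10 members were detected in every mouse. Their order was read from the deposited TPM, in which counts are divided by exonic length and brought to an equal total in each library, so that levels can be compared between genes. Averaged over the 6 libraries, Klf13 had 194.9 ± 19.4 TPM, Klf9 178.6 ± 18.4, Klf10 161.1 ± 76.9, Klf6 75.1 ± 7.06 and Klf2 70.2 ± 27.3 (SD, n = 6). The 3 highest were thus all Sin3a-binding repressors. Klf16 followed at 55.5 ± 22.2 TPM, Klf7 at 22.1 ± 1.08, Klf5 at 18.1 ± 2.86, Klf11 at 12.8 ± 2.04 and Klf4, a factor best known from pluripotent cells, at 4.75 ± 2.00 (SD, n = 6). Most neighbours in this order did not differ beyond their spread, since their ranges over the 6 libraries overlapped. The ranges were apart between Klf16 and Klf7 and between Klf11 and Klf4. Within libraries, the upper gene was higher in 6 of 6 for these pairs and for Klf7 and Klf5 as well. Klf13 was above Klf9 in 5 libraries and Klf9 above Klf10 in 3.

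The place of Klf10 in this order differed between the ages. At 6 months it had 220.1, 251 and 208 TPM in mice 10, 11 and 17 and the highest mean level of the 10 members. At 24 months it had 139, 71.8 and 76.0 TPM in mice 2, 4 and 5 and ranked 3, after Klf13 and Klf9. The members other than Klf10 kept the same order among themselves at both ages.

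All 10 members are protein-coding genes, on as many different chromosomes, with between 1847 (Klf2) and 8131 (Klf7) exonic bases in GENCODE vM21 (GRCm38). Of the Sin3a-binding paralogs of Klf10, Klf9 (ENSMUSG00000033863.2) lies at chr19:23141226-23168134 (plus strand), Klf11 (ENSMUSG00000020653.12) at chr12:24651274-24662789 (plus strand), Klf13 (ENSMUSG00000052040.10) at chr7:63886351-63938915 (minus strand) and Klf16 (ENSMUSG00000035397.8) at chr10:80567124-80577321 (minus strand). Of the activators, Klf2 (ENSMUSG00000055148.7) lies at chr8:72319033-72321656 (plus strand), Klf4 (ENSMUSG00000003032.8) at chr4:55527143-55532466 (minus strand), Klf5 (ENSMUSG00000005148.8) at chr14:99298691-99315036 (plus strand), Klf6 (ENSMUSG00000000078.7) at chr13:5861482-5870394 (plus strand) and Klf7 (ENSMUSG00000025959.13) at chr1:64029447-64122282 (minus strand).

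Klf10 (ENSMUSG00000037465.10) lies at chr15:38291463-38300706 on the minus strand (GRCm38, GENCODE vM21), a protein-coding gene whose transcripts cover 4179 exonic bases in 10 blocks. The files hold 8116, 10253 and 8084 counts of it in the 6-month mice 10, 11 and 17, and 4949, 2729 and 2840 in the 24-month mice 2, 4 and 5. Comparison between mice used CPM, counts relative to the library size as scaled by edgeR's TMM factors. On this scale Klf10 was at 263, 297 and 247 at 6 months and at 153, 78.9 and 83.5 at 24 months. The ages did not overlap, and among the old mice, mouse 2 stood above the other two. The young mean was 269 ± 25.6 CPM and the old mean 105.0 ± 41.3 (SD, n = 3 each), so that the old mice had 39.0% of the young mean. The log2 fold change of 24 against 6 months was -1.36 ± 0.22 (SE), and with 1 mouse left out it ran from -1.72 (24-month mouse 2 left out) to -1.18 (24-month mouse 4 left out). Among the 2241 genes with a mean of at least 100 CPM, 0 had a lower log2 fold change than Klf10, and among the 15761 genes of at least 1 CPM 4 did. As Klf10 was chosen by its difference between the ages, this place is a description and no test.

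The 4 paralogs of Klf10 in the Sin3a-binding group differed less between the ages. Klf9 had 234, 283 and 251 CPM in the 6-month mice 10, 11 and 17 and 194, 219 and 233 in the 24-month mice 2, 4 and 5. The old mice were all just below the young ones, with a log2 fold change of -0.25 ± 0.11 (SE). Klf13, the most abundant member, had 469, 341 and 419 CPM at 6 months and 409.6, 378 and 392 at 24 months, in the same order of mice. Its ages overlapped, and its log2 fold change of -0.06 ± 0.12 (SE) was within its error. Klf11, the closest relative of Klf10 and likewise inducible by TGF-beta, had 17.1, 18.6 and 12.6 CPM at 6 months and 11.9, 16.0 and 15.4 at 24 months, with a log2 fold change of -0.16 ± 0.17 (SE). Klf16 had 22.8, 27.8 and 55.6 CPM at 6 months and 59.2, 46.9 and 29.4 at 24 months. It was high in mouse 17 of the young group and in mice 2 and 4 of the old group, with a log2 fold change of 0.35 ± 0.33 (SE).

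Among the activators, Klf6, known as an early response gene in several tissues, had 107, 99.2 and 89.9 CPM in the 6-month mice 10, 11 and 17 and 75.8, 88.7 and 81.5 in the 24-month mice 2, 4 and 5. All old mice were below all young mice, with mouse 4 of the old group closest to mouse 17 of the young, and the log2 fold change was -0.27 ± 0.10 (SE). Klf7, a factor of neuronal differentiation, was the steadiest member, at 54.2, 48.1 and 50.8 CPM against 44.1, 49.1 and 48.2 (log2 fold change -0.11 ± 0.10 SE). Klf7 shares 3196 exonic bases with the gene Gm26649 on the opposite strand, which was not analysed here, and since the counting is not stated to use strand the reads of both cannot be told apart. Klf5 had 25.8, 26.9 and 25.7 CPM at 6 months and 27.5, 29.9 and 18.4 at 24 months. Its young mice lay close together and its old mice on both sides of them, with a log2 fold change of -0.05 ± 0.16 (SE).

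Klf2 and Klf4, both known from vascular endothelium, were the members that varied most without regard to age. Klf2 had 14.0, 53.8 and 42.8 CPM at 6 months and 41.7, 25.2 and 35.1 at 24 months. The lowest and the highest library were both of 6 months, 3.85-fold apart, and the log2 fold change was -0.12 ± 0.39 (SE). Klf4 had the fewest reads of all members, between 78 and 217 counts per library. It was at 2.85, 3.59 and 4.83 CPM at 6 months and at 6.69, 3.41 and 2.29 at 24 months, where mouse 2 was highest and mouse 5 lowest of all 6 (log2 fold change 0.13 ± 0.35 SE).

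**Figure D1:**
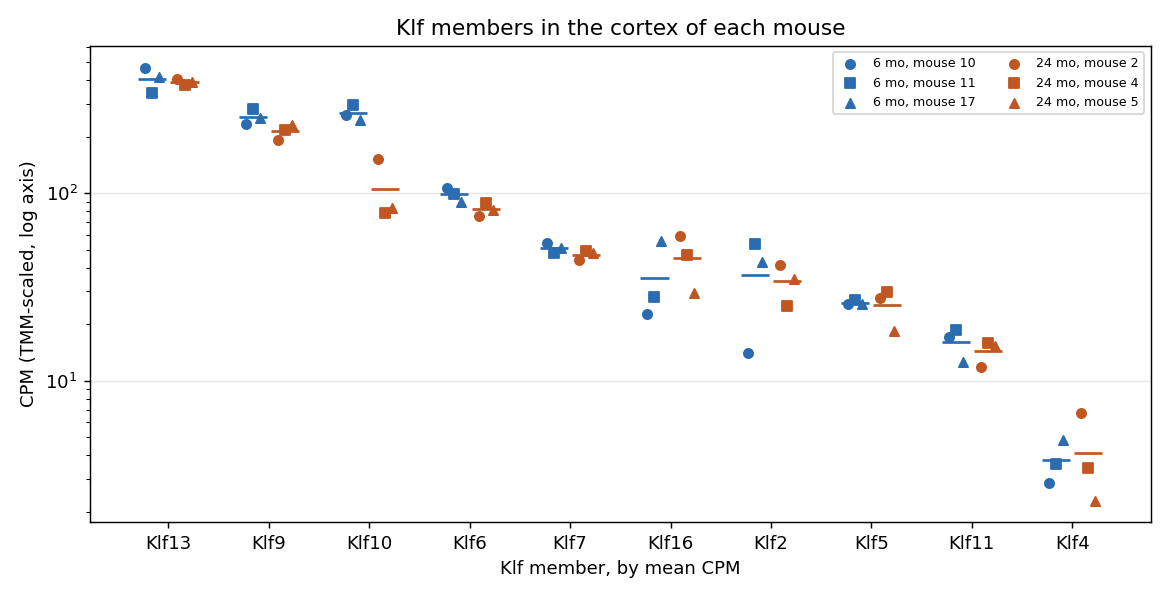
CPM (TMM-scaled, log axis) of the 10 Klf members in each of the 6 mice, ordered by mean CPM, with a line at the mean of each age (n = 3). Klf10 separates into 247 to 297 CPM in the blue 6-month mice and 78.9 to 153 CPM in the orange 24-month mice, while most other members overlap.

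In TMM-scaled CPM, 3 of the 10 members (Klf6, Klf9 and Klf10) had all old mice below all young mice and 0 had them all above. Of all 32905 genes tested, 16.3% had the old mice all below and 20% had them all above, and of those with at least 1 CPM, a mean that every member reached, 32.5% and 5.32%. In the deposited TPM, which take no TMM factor, only Klf10 of these 3 stayed apart. Klf6 was at 72.2 to 85.4 TPM in the young and 65.7 to 76.9 in the old. Klf9 was at 169.9 to 208 TPM in the young and 153 to 183.8 in the old. The quasi-likelihood test of edgeR called 1 of the 10, Klf10, at 10% FDR, where 18.4% of all genes were called. As the members were chosen with this contrast in view, nothing is read from these counts. At an FDR of 1%, 0 members and 0% of all genes were called, whereas 3 members (Klf6, Klf9 and Klf10) and 30.7% of all genes had an unadjusted p under 0.05. The likelihood ratio test of edgeR and the Wald test of DESeq2 each called 1 member at 1% FDR, Klf10, beside 5.18% and 0.836% of all genes. At 10% FDR the quasi-likelihood test called 0 members when the 6-month mouse 10 (0% of all genes), the 6-month mouse 11 (0.00312%) or the 24-month mouse 4 (0%) was left out, and 2, Klf9 and Klf10, when the 24-month mouse 5 was (25.6%).

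Small differences of the members depended on the scaling of the libraries. The old libraries had counts on more genes (40208 to 43561, against 33974 to 35651 in the young), and their TMM factors were 1.04 to 1.10 against 0.921 to 0.946. Replacing TMM with library totals moved the median log2 fold change of the genes of at least 1 CPM from -0.14 to 0.05, and that of all genes tested from 0.15 to 0.34. With library totals the log2 fold changes of Klf2, Klf5, Klf7, Klf11 and Klf13 turned from below to above 0 (0.07, 0.15, 0.08, 0.03 and 0.14). Those of Klf6 and Klf9 came to -0.08 and -0.06, and that of Klf10 to -1.16. The median of the 10 members was -0.12 with TMM and 0.07 with library totals, close to the median of all genes of at least 1 CPM in both. Relative to that median, with TMM, Klf10 was at -1.21, Klf6 at -0.13, Klf9 at -0.11, Klf4 at 0.28 and Klf16 at 0.49 on the log2 scale.

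**Figure D2:**
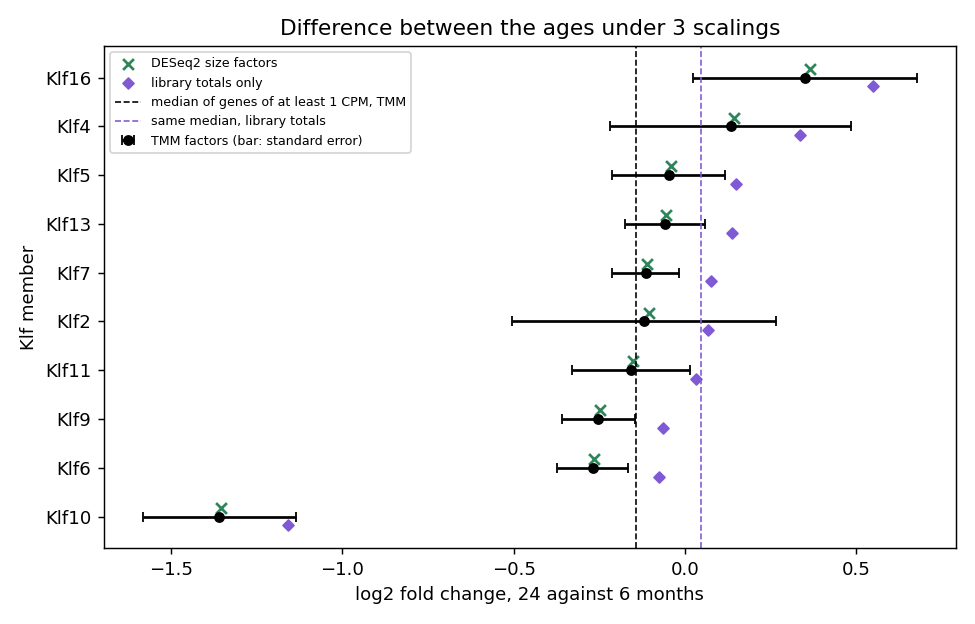
Log2 fold change of 24 against 6 months for each Klf member under 3 scalings, with standard errors for TMM and dashed lines at the median of the 15761 genes of at least 1 CPM. Library totals shift all members to the right along with the median, and Klf10 stays far to the left of both medians, at -1.36 with TMM and -1.16 with library totals.

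Ratios within a library do not depend on the scaling. The log2 ratio of Klf10 to Klf9 in CPM was 0.17, 0.07 and -0.02 in the 6-month mice 10, 11 and 17 and -0.34, -1.47 and -1.48 in the 24-month mice 2, 4 and 5. Klf10 reads were thus about as many as Klf9 reads in the young mice, more in 2 of the 3, and fewer in all old mice. The log2 ratio to Klf11 was 3.94, 4.00 and 4.29 at 6 months and 3.68, 2.30 and 2.43 at 24 months. Against each of the 9 paralogs the ratio was lower in all 3 old mice than in all 3 young mice, and the mean log2 ratio differed by between -1.15 (to Klf6) and -1.82 (to Klf16). Because the fall in each ratio shares the Klf10 values, these are not 9 separate observations.

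Klf10 made up 27.3%, 28.0% and 23.9% of the summed TPM of the 10 members in the 6-month mice 10, 11 and 17, and 17.5%, 10.3% and 10.9% in the 24-month mice 2, 4 and 5. The mean share was 26.4% ± 2.17 at 6 months and 12.9% ± 3.97 at 24 months (SD, n = 3). The other 9 members summed to 587, 647 and 662 TPM at 6 months and to 656, 622 and 619 at 24 months. Their summed level in TPM overlapped between the ages, with means of 632 ± 39.8 and 632 ± 20.5 TPM (SD, n = 3). TPM gives every library an equal total and takes no TMM factor, so this likeness is tied to that scale. In TMM-scaled CPM, Klf13, Klf9 and Klf6, the most abundant of the 9, had log2 fold changes of -0.06, -0.25 and -0.27. With Klf10 included, the summed TPM of the 10 members was 858 ± 46.9 at 6 months and 728 ± 58.0 at 24 months (SD, n = 3). Klf13 had the largest share in all 3 old mice, at 26.1%, 27.5% and 28.5%, and 26.9%, 17.8% and 22.5% in the young ones.

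**Figure D3:**
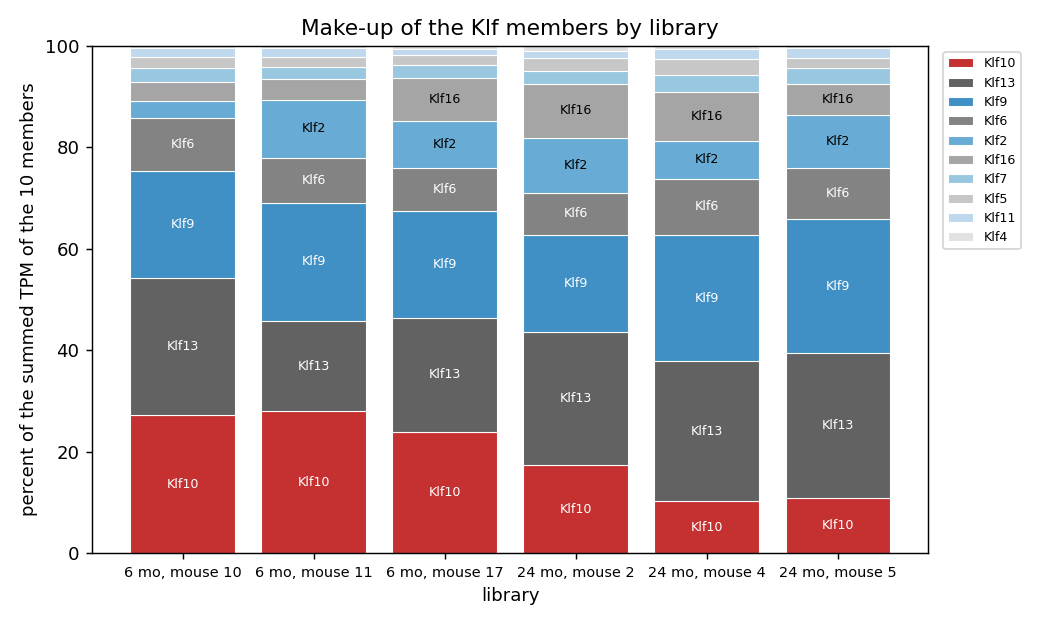
Percent of the summed TPM of the 10 Klf members taken by each member, 1 bar per library. The red Klf10 segment covers 23.9% to 28.0% in the 6-month mice and 10.3% to 17.5% in the 24-month mice.

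Mice of 1 age differed in Klf10 more among the old than among the young, with an SD of log2 CPM of 0.53 at 24 months and 0.14 at 6 months (n = 3 each, not tested). For Klf9 these SDs were 0.14 and 0.14, for Klf6 0.11 and 0.13 and for Klf7 0.08 and 0.09, at 24 and 6 months. Klf2 showed the reverse order, with 0.37 at 24 months and 1.04 at 6 months, and Klf16 had 0.51 and 0.67. Over all 6 libraries the highest was 3.76-fold above the lowest in Klf10, 2.92-fold in Klf4, 2.60-fold in Klf16 and 1.23-fold in Klf7.

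Genes whose pattern over the 6 libraries was most like that of Klf10 were sought among 15760 genes of at least 1 CPM. The measure was the root mean square difference in log2 CPM after each gene was centred on its own mean. The 5 nearest were Kcng1, a potassium channel subunit (0.25), Tdrd1, a Tudor domain gene known from the germline (0.25), Dusp6, a phosphatase that limits ERK signaling (0.26), Jun, a subunit of the AP-1 factor (0.29), and Zmym1 (0.29). Dusp6 had 134, 137 and 124 CPM in the 6-month mice 10, 11 and 17 and 104, 51.2 and 62.8 in the 24-month mice 2, 4 and 5. Jun had 92.4, 101.9 and 76.6 CPM at 6 months and 55.1, 37.1 and 45.9 at 24 months. In both, as in Klf10, mouse 2 was the highest of the old mice. Every paralog was farther from Klf10. Klf6 came closest, at 0.69 with 4887 genes nearer, and Klf16 was farthest, at 1.04 with 14770 genes nearer. As Klf10 was chosen by its difference between the ages, genes near it by this measure differ between the ages as well.

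Immediate early genes, which neurons switch on within minutes of activity, were followed in a list of 13 genes (among them Fos, Arc and Egr1, without Jun). Their CPM summed to 3380 in mouse 10, 3928 in mouse 11 and 2092 in mouse 17 at 6 months, and to 4119 in mouse 2, 1054 in mouse 4 and 863 in mouse 5 at 24 months. Mouse 2 had the highest sum of all and the highest Klf10 level of the old mice, 153 CPM, which was below the 247 CPM of mouse 17. From highest to lowest, the sums ran over mice 2, 11, 10, 17, 4 and 5, and Klf10 over mice 11, 10, 17, 2, 5 and 4. Jun, an immediate early gene outside that list, was picked above for its likeness to Klf10, so that likeness is no separate observation. Arc, a synaptic plasticity gene and the most abundant of the list, had 864 ± 322 CPM at 6 months and 484 ± 542 at 24 months (log2 fold change -0.84 ± 0.64 SE, edgeR quasi-likelihood adjusted p = 0.394). Egr1, a zinc finger factor, had 713 ± 196 and 357 ± 235 CPM (log2 fold change -0.998 ± 0.38 SE, edgeR quasi-likelihood adjusted p = 0.117). Of the 13 genes, 0 were called at 10% FDR by the quasi-likelihood test (18.4% of all genes), and 1 had an unadjusted p under 0.05 (30.7%). At 10% FDR the likelihood ratio test called 1 (22.8% of all genes) and DESeq2 0 (11.2%). The median log2 fold change was -0.45. Without mouse 2 the log2 fold change of Klf10 was -1.72. The part of these genes in the Klf10 difference was not tested.

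**Figure D4:**
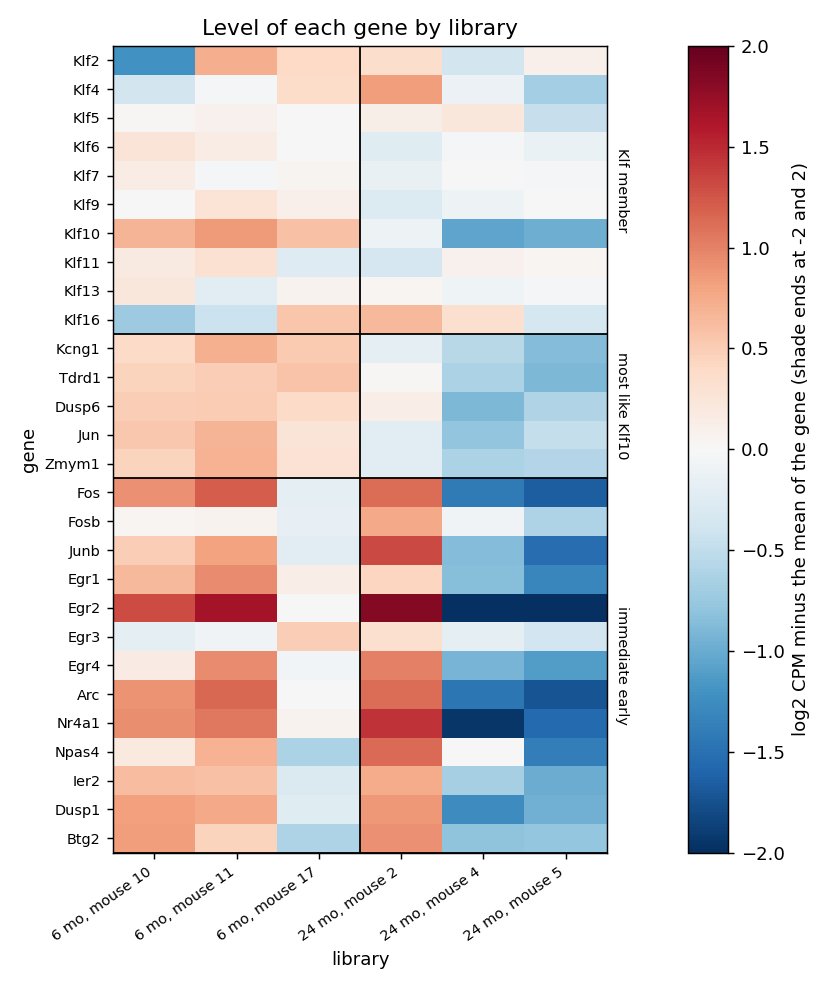
Log2 CPM minus the mean of the gene in the 6 libraries, for the 10 Klf members, the 5 genes most like Klf10 and 13 immediate early genes (shades end at -2 and 2). Klf10 is red in all 3 mice of 6 months and pale to blue in those of 24 months, whereas most immediate early genes are red in mouse 2 of 24 months.

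Klf2 and Klf16 had the most GC-rich transcripts of the members, with 61.6% and 60.4% GC, in the top of 10 bins of the genes of at least 1 CPM. Both were lowest in the 6-month mouse 10, where they lay 1.21 and 0.72 below their own means on the log2 scale (deviations of -1.21 and -0.72). In the highest GC bin the median gene of that library deviated by -0.02, and in the lowest bin by 0.13. The 24-month mouse 2 ran the other way, from -0.22 in the lowest bin to 0.03 in the highest. Taking out the median of the bin in each library left the deviations of Klf2 and Klf16 in mouse 10 at -1.19 and -0.70. Klf10, with 46.9% GC in bin 4, differed by -1.42 between the mean log2 CPM of the ages before this centring and by -1.24 after it. Klf6 moved from -0.27 to -0.06 and Klf9 from -0.25 to -0.07. GC content was known for 99.9% of the genes.

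**Figure D5:**
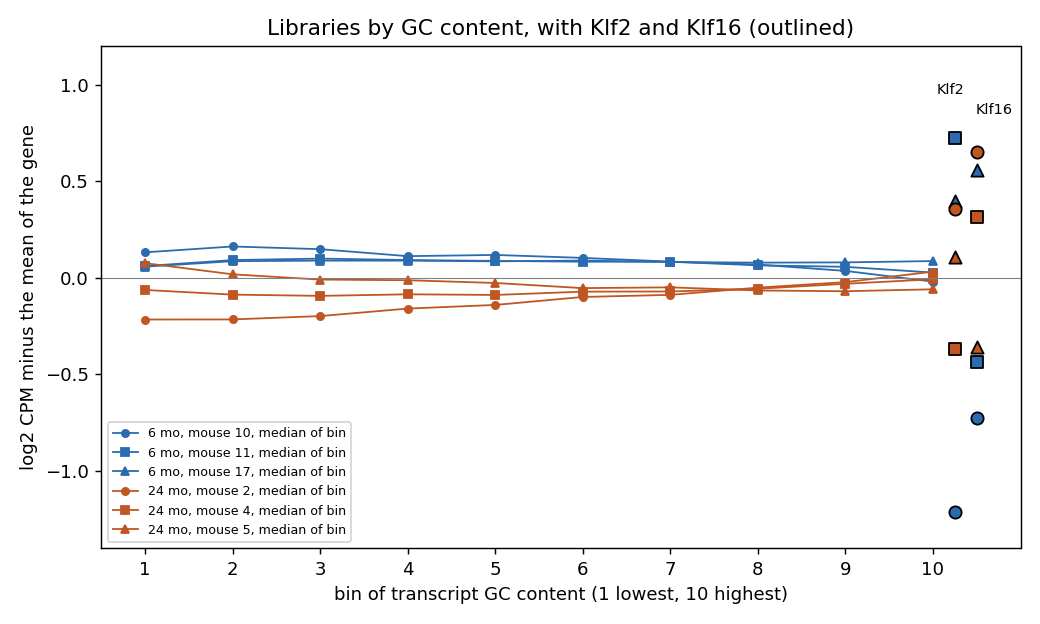
Median deviation of log2 CPM from the mean of the gene in 10 bins of transcript GC content, 1 line per library, with the deviations of Klf2 and Klf16 as outlined points at the right. The library medians stay between -0.22 and 0.16, while Klf2 and Klf16 spread from -1.21 to 0.72.

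Genes around the family were described from lists of partners and pathways, and tested with edgeR's quasi-likelihood test at 10% FDR over all genes. Of 106 such genes tested, 17 were called, 2 higher and 15 lower at 24 months, beside 10% higher and 8.33% lower among all genes tested and 2.43% and 17.3% among those of at least 1 CPM. Their median log2 fold change was -0.17. Under scaling by library totals, 3 were called higher and 1 lower (13.5% of all genes, 12.5% higher and 0.966% lower), and of the 15 falls, 0 were called when low genes were filtered by filterByExpr (2 rises, 7.51% of all genes) and 10 with DESeq2 (1 rise). Whether a fall named here was called thus depended on the scaling, the filter and the test. With 1 mouse left out, 0 were called without the 6-month mouse 10, the 6-month mouse 11 or the 24-month mouse 4, 11 without the 24-month mouse 2 (0.585% of all genes) and up to 21 without the 24-month mouse 5. At 1% FDR 0 were called.

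Of the 7 Klf genes outside the list, 0 were called by the quasi-likelihood test, 0 had an unadjusted p under 0.05, and at 10% FDR the likelihood ratio test (22.8% of all genes called) and DESeq2 (11.2%) called 0 each. Klf15, a metabolic regulator known to respond to glucocorticoids, had 46.1 ± 7.05 CPM at 6 months and 45.1 ± 2.32 at 24 months (log2 fold change -0.03 ± 0.12 SE). Klf12, a CtBP-binding repressor, had 42.1 ± 4.54 and 35.6 ± 7.57 CPM (log2 fold change -0.24 ± 0.15 SE). Klf1, the erythroid member, and Klf17 were at the edge of detection, with at most 0.401 and 0.289 CPM in any library. In the related Sp family, 1 of 8 genes tested was called, beside 17.3% of the genes of at least 1 CPM called lower. Sp4, a factor enriched in neurons, fell from 34.1 ± 1.81 to 25.2 ± 3.30 CPM (log2 fold change -0.44 ± 0.12 SE, edgeR quasi-likelihood adjusted p = 0.0626). With library totals Sp4 was not called (edgeR quasi-likelihood adjusted p = 0.173).

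The TGF-beta pathway, through which Klf10 was discovered, was followed from its ligands to its target genes, and its counts are to be read beside the shares over all genes above. Of the 5 ligands 0 were called (0 had an unadjusted p under 0.05, and both other tests called 0). Tgfb3 had 21.8 ± 1.12 CPM at 6 months and 19.3 ± 1.76 at 24 months, and Tgfb2 15.4 ± 1.15 and 15.5 ± 1.42. Of the 6 receptors 1 fell, Acvr1b, an activin type I receptor, from 147 ± 14.2 to 111 ± 14.3 CPM (log2 fold change -0.40, edgeR quasi-likelihood adjusted p = 0.0686). Of the 3 transducers, Smad3, which carries the signal to the nucleus, had 64.6, 64.8 and 60.8 CPM in the young mice and 49.3, 49.5 and 50.6 in the old ones. It fell, with no overlap between the ages (log2 fold change -0.35 ± 0.09 SE, edgeR quasi-likelihood adjusted p = 0.0570). With library totals Acvr1b and Smad3 were not called (edgeR quasi-likelihood adjusted p = 0.219 and 0.261), nor were they with filterByExpr. DESeq2 called both (adjusted p = 0.0910 and 0.0618).

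The calls in the other direction were among the 9 inhibitors of the pathway, where 2 rose and 0 fell. Of all genes tested, 10% were called higher and 8.33% lower, and of those of at least 1 CPM 2.43% and 17.3%. Calls of a rise were mostly on low genes: of 3299 in all, 383 were on genes of at least 1 CPM. Smad6, with a mean of 0.410 CPM, lay below that level, and Tgif1, with 1.55 CPM, above it. Tgif1, a repressor of Smad-dependent transcription, rose from 1.15 ± 0.114 to 1.95 ± 0.0340 CPM (log2 fold change 0.77 ± 0.19 SE, edgeR quasi-likelihood adjusted p = 0.0578). Smad6, an inhibitory Smad, rose from 0.228 ± 0.0906 to 0.593 ± 0.171 CPM (log2 fold change 1.38 ± 0.40 SE, edgeR quasi-likelihood adjusted p = 0.0686), on few reads. Both were also called with library totals (adjusted p = 0.0514 and 0.0647 in the quasi-likelihood test) and with filterByExpr. Library totals, however, called 12.5% of all genes higher and 0.966% lower. Smad6, with 10, 5 and 7 counts in the young libraries and 20, 26 and 14 in the old ones, passed filterByExpr through the old libraries. These calls are thus no separate support for a rise of Smad6. With DESeq2 Tgif1 was called (adjusted p = 0.0730) and Smad6 was not (adjusted p = 0.105). Of the 7 target genes, 0 were called (0 had an unadjusted p under 0.05, and both other tests called 0). Id2, the most abundant, had 191 ± 88.0 CPM at 6 months and 197 ± 24.5 at 24 months, and Id3 had 29.02 ± 4.01 and 26.7 ± 6.52.

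Among 15 partners, 5 fell and 0 rose, beside 17.3% of the genes of at least 1 CPM called lower. The list holds cofactors and the ubiquitin ligase genes Siah1a, Wwp1 and Fbxw7. Those that fell were Sin3a, Sin3b, Sap30, Rbbp4 and Rbbp7. Hdac1, Hdac2 and Sap18, which belong to the same corepressor complex, were not called (log2 fold changes -0.11, -0.11 and -0.12). Sin3a, the scaffold bound by Klf9, Klf10, Klf11, Klf13 and Klf16, had 45.3, 43.2 and 40.4 CPM in the 6-month mice 10, 11 and 17 and 25.9, 32.5 and 36.4 in the 24-month mice 2, 4 and 5. All old mice were below all young mice, with a log2 fold change of -0.44 ± 0.13 (SE, edgeR quasi-likelihood adjusted p = 0.0698). Sin3b fell from 67.9 ± 3.53 to 52.1 ± 3.72 CPM (log2 fold change -0.38, edgeR quasi-likelihood adjusted p = 0.0573). Sap30 had a log2 fold change of -0.45 (edgeR quasi-likelihood adjusted p = 0.0944) and Rbbp4 of -0.32 (edgeR quasi-likelihood adjusted p = 0.0709). Rbbp7, the remaining one called (log2 fold change -0.29), and the 3 not called lie outside the naming rule and were named after their values were seen. With DESeq2, Sin3a and Sin3b were called and the other 3 were not. With library totals 0 of the 15 were called, the log2 fold changes of Sin3a and Sin3b being -0.25 and -0.19.

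Markers of cell types were followed in the same libraries. The TMM-scaled CPM of 8 neuron markers summed to 8865 to 10334 in the young and 6539 to 8610 in the old, without overlap on that scale. This gap rests on the TMM factors. Snap25 and Syt1 were the most abundant of them, with means of 4657 and 1905 CPM over the 6 libraries. Of the 8 genes, 4 had all old mice below all young mice, and Map2, Slc17a7, Gad1 and Gad2 overlapped. The median log2 fold change of the 8 was -0.28 with TMM and -0.09 with library totals. Of these 8 genes 2 were called lower with TMM, beside 17.3% of the genes of at least 1 CPM, and 0 with library totals. Astrocyte markers (7 genes) summed to 4690 to 5073 CPM in the young and 4904 to 5336 in the old. Oligodendrocyte markers (6 genes) were at 1259 in the 24-month mouse 2 and at 2368 to 4052 in the other mice. That mouse also had the lowest sum of 9 endothelial markers, 114 against 163 to 213 in the others, while its Klf2 level of 41.7 CPM was near the middle. In the 6-month mouse 10, where Klf2 was lowest, the endothelial sum was 163. Microglia markers (7 genes) summed to 513 to 548 CPM over all mice. Striatal (6 genes), choroid plexus (5 genes) and meningeal (6 genes) markers reached at most 167, 44.6 and 77.9 CPM in any library, and 0 genes of these lists were at 0 in all libraries. The summed CPM of 5 red cell genes was 77.1 to 98.4 in the young and 57.0 to 80.1 in the old, and that of 6 lymphocyte genes 1.56 to 3.02 and 3.70 to 5.15. The sums of 7 mural markers (181 to 265 against 140.4 to 314) and of 5 markers of oligodendrocyte precursors (126 to 131 against 93.4 to 138) overlapped. With TMM, the quasi-likelihood test called 2 lymphocyte genes higher (median log2 fold change of the list 1.08), 1 astrocyte gene higher, 1 microglia and 1 precursor gene in each direction, and 1 red cell and 1 striatal gene lower. Among all genes tested, 10% were called higher and 8.33% lower, and among those of at least 1 CPM 2.43% and 17.3%. The 2 lymphocyte genes, Cd3g and Jchain, had means of 0.189 and 0.985 CPM. Of 3299 genes called higher in all, 383 had at least 1 CPM. The same test called 0 genes of the oligodendrocyte, endothelial, mural, meningeal and choroid plexus lists. In these lists 0 genes had an unadjusted p under 0.05, and the likelihood ratio test and DESeq2 called 0. The part of any of these in the Klf10 difference was not tested.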

How the data were processed

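RNA was measured in the cortex of 6 male mice, and the 2 ages were taken from the labels. The authors trimmed the reads with Trim Galore 0.6.4, mapped them to GRCm38 with STAR 2.7.3a and counted those on exons by gene with featureCounts (Subread 2.0.0). They deposited whole-number counts per gene, used here as they are (the stated options split reads of several positions, so the counts may have been rounded), and TPM values, which the authors obtained by dividing the counts by exonic length. The count and TPM files were joined by row, since counts and TPM were 0 or above 0 together in 100% of values. Differences between the ages were fitted with edgeR 4.0.16 (R 4.3.3): TMM factors, at least 10 counts over the 6 libraries, the quasi-likelihood test and Benjamini-Hochberg adjustment over all 32905 genes tested. The p-values measure the spread between these mice. Where log2 CPM was used, the prior count was 2. Alternatives were the likelihood ratio test, DESeq2 1.42.0, its size factors, library totals, other filters and each mouse left out. The centring on GC content was added after the data had been seen. The fit was tested on simulated data. With fewer than 100 counts in a library, as for Klf4, counting error is large.

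The members, lists and call levels were chosen with earlier results of these data known. All 10 members were named, with the 5 genes most like Klf10. From each list up to 4 called genes of the largest change were named, or, with none called, the 2 most abundant. An FDR of 10% was used for calls, since 0 genes passed the 1% of the study in the quasi-likelihood test. Positions are from GENCODE vM21, whereas the authors used another release of the same build.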

Additional observations from a re-analysis of the deposited data

How the results depend on the processing

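The log2 fold change of Klf10 stayed below 0 under all alternatives run, from -1.72 to -1.18 with 1 mouse left out, and moved from -1.36 by less than the SD of log2 CPM between mice of 1 age pooled over both ages, which is 0.38 and comes mostly from the old mice. For the 9 members other than Klf10, 108 of 117 alternative values lay within each gene's own pooled SD of the reported one and 9 were farther. The log2 fold changes of Klf2, Klf4, Klf5 and Klf13 changed sign when 1 mouse was left out, with ranges of -0.51 to 0.32, -0.39 to 0.43, -0.18 to 0.14 and -0.14 to 0.05. The number of members called at 10% FDR ran from 0 to 2 with 1 mouse left out. Of the genes of the other lists, 17 were called, against 11 with DESeq2, 2 with filterByExpr and 4 with library totals, and from 0 to 21 with 1 mouse left out (0 without the 6-month mouse 10 or 11 or the 24-month mouse 4). The cause was not tested. The Klf10 share of the summed Klf level at 6 months was 22.4% with CPM in place of TPM, since CPM does not divide by length, and 25.6% to 27.6% with 1 mouse left out. At 24 months the latter range was 10.6% to 14.2%. By CPM, Klf7 moved from rank 7 to rank 5 and Klf2 from rank 5 to rank 7. No paired analysis was possible because the ages share no replicate number in the labels.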

Other observations

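Other pathways that are known to control members of the family were described from lists as well. Klf9 and Klf10 are known as clock-controlled genes in other tissues. Of 16 clock genes, 4 fell between 6 and 24 months and 0 rose, beside 17.3% of the genes of at least 1 CPM called lower, with a median log2 fold change of -0.29. Per2, a repressor of the clock, had 45.6, 51.8 and 38.2 CPM in the 6-month mice 10, 11 and 17 and 33.4, 24.2 and 21.0 in the 24-month mice 2, 4 and 5 (log2 fold change -0.79 ± 0.18 SE, edgeR quasi-likelihood adjusted p = 0.0527). It was also called with library totals (edgeR quasi-likelihood adjusted p = 0.0911). Per1 fell from 65.9 ± 11.8 to 42.9 ± 13.9 CPM (edgeR quasi-likelihood adjusted p = 0.0913), although mouse 2 of 24 months was above mouse 17 of 6 months. Bhlhe40, a repressor at E-boxes, fell from 313 ± 43.4 to 217 ± 36.7 CPM (edgeR quasi-likelihood adjusted p = 0.0602) and Cry2 from 234 ± 24.6 to 187 ± 9.83 (edgeR quasi-likelihood adjusted p = 0.0776). With library totals Per1, Bhlhe40 and Cry2 were not called, and with DESeq2 Cry2 was not (adjusted p = 0.130). With filterByExpr 0 of the 4 were called. The hour of day at which each mouse was killed is not in the labels.

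Of 10 genes of the glucocorticoid and thyroid hormone axis, 2 fell (Sgk1 and Tsc22d3) and 0 rose. Of the genes of at least 1 CPM, 17.3% were called lower and 2.43% higher. Fkbp5 and Zbtb16, known glucocorticoid targets like Sgk1 and Tsc22d3, were not called (log2 fold changes 0.30 and -0.05) and were named after their values were seen. Sgk1, a kinase, had 95.0, 125 and 70.1 CPM at 6 months and 44.9, 54.4 and 69.4 at 24 months, where mouse 5 came close to mouse 17 (log2 fold change -0.78 ± 0.21 SE, edgeR quasi-likelihood adjusted p = 0.0617). Tsc22d3, also known as GILZ, fell from 164 ± 26.5 to 115 ± 10.4 CPM (log2 fold change -0.51, edgeR quasi-likelihood adjusted p = 0.0567). The MEK5, ERK5 and MEF2 axis is known to induce Klf2 and Klf4 in endothelium under flow. Of 7 genes followed for that axis, among them the endothelial genes Nos3 and Thbd, 1 was called, beside the same 17.3% called lower. It was Mef2c, a factor abundant in cortical neurons. Mef2c fell from 1263 ± 88.7 to 1038 ± 14.9 CPM (log2 fold change -0.28, edgeR quasi-likelihood adjusted p = 0.0727). With library totals or filterByExpr these 3 genes were not called. Mef2c was also not called with DESeq2 (adjusted p = 0.138), the likelihood ratio test (0.118) or DESeq2's size factors in edgeR (0.101).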
